A study of Mus musculus with 12 samples.

Results

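The interferon response genes are transcripts that cells switch on after interferon has bound its receptor, and 49 of them, listed by gene symbol, were followed here through leukemic mouse cells. Of the 49 genes, 46 had a row in the expression table and 44 of these averaged at least 1 FPKM over the 12 libraries, among 25263 symbols in all and 13169 that reached that mean. FPKM counts fragments against both the length of a transcript and the size of a library, so levels can be set side by side between genes. *Oas1a*, *Irf9* and *Gbp2* had no row. *Ifit3* (mean 0.773 FPKM) and *Ifi44* (mean 0.338 FPKM) lay below that mean, and *Oasl1* (1.44), *Ifit2* (1.77) and *Mx2* (1.91) lay closest above it. *Oasl1*, *Oasl2*, *Ifit1*, *Mx1* and *Mx2* averaged less than 1 FPKM in both wild type groups and passed through their levels in the floxed cells, so that these 5 genes had to differ.

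Interferons of type I signal through a paired receptor and the kinases JAK1 and TYK2 to a complex that holds STAT2 and IRF9 and binds the interferon-stimulated response element (ISRE) before many target genes. Interferon gamma signals through another receptor, and its target genes carry the gamma-activated site (GAS). The targets include sensors of foreign RNA and DNA, enzymes that degrade RNA or stop translation, the ubiquitin-like modifier ISG15, and the machinery that loads peptides onto MHC class I. In blood stem and progenitor cells interferon is known to change how often cells divide, and many of its target genes are also transcribed at a low level without added interferon.

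The cells were adult mouse bone marrow leukemic cells with MA9 (MLL-AF9, a fusion of a chromatin regulator with a partner of the elongation machinery that drives acute leukemia). There were 4 groups of 3 libraries. WT-GFP and WT-Cre carried a wild type Hoxa cluster on strain C57BL/6. Hoxa-flox and Hoxa-del carried a Hoxa cluster flanked by loxP sites on strain C57BL/6J, left whole in Hoxa-flox and deleted by Cre recombinase in Hoxa-del. All 12 cultures had been grown overnight with SCF, GM-CSF, IL-6 and IL-3, spun with retrovirus and sorted for high GFP. The virus of WT-GFP and Hoxa-flox was the control and that of WT-Cre and Hoxa-del carried Cre. No uninfected cells and no cells given interferon were among the samples, and the labels name neither the number of leukemias nor the cultures or animals behind the replicate numbers. Genotype, strain label and leukemia differed together and cannot be told apart, and p-values measure the spread between these libraries, which may be technical. The virus of the WT groups was read from the sample titles.

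Some facts of the whole series bear on the values. The level of *Hoxa9*, a target of the deletion, was 235, 217 and 257 FPKM in Hoxa-flox and 83.5, 114 and 119 in Hoxa-del, so it was lower but present after Cre. The myeloid markers *Ptprc*, *Itgam* and *Spi1* were present in all 12 libraries. The 9 markers of that list summed to 1727 to 2041 FPKM in the WT and 1054 to 1505 in the floxed libraries. Of these 9, 2 rose and 3 fell in Hoxa-flox against WT-GFP (beside 13.3% and 13.5% of all symbols tested). The 6 libraries of floxed cells fell into a pair of sets on their first principal component (64.1% of the variance, over tested symbols that are not on the list). *Mki67*, a marker of dividing cells, was at 16.4, 14.9 and 17.8 FPKM in Hoxa-flox 1, Hoxa-flox 2 and Hoxa-del 2, called the low-Mki67 set. It was at 88.5, 84.6 and 93.2 FPKM in Hoxa-flox 3, Hoxa-del 1 and Hoxa-del 3, the high-Mki67 set, and between 65.1 and 78.2 in the WT libraries. The sets cross the deletion, were read from these data and are no groups of the study, so values are given by set with no test between sets.

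RefSeq promoter windows (GRCm38.p6) were matched by symbol for 33 of the 44 genes. Sequence is shown for the 6 genes that hold the core of the ISRE, the element through which such genes are known to move together, and differed most between the sets, and for the 2 that differed most among those without it. *Irf7* and *Oasl2*, whose set differences were larger than that of *Rsad2*, also lack the core and are not shown. The ISRE core was searched as GAAANNGAAA and its other strand TTTCNNTTTC in the 250 bases before the start, and it is in capitals below. Bases inside an annotated exon of the gene were left off the printed end.

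Oas3 (chr5:120777662-120777909, minus strand): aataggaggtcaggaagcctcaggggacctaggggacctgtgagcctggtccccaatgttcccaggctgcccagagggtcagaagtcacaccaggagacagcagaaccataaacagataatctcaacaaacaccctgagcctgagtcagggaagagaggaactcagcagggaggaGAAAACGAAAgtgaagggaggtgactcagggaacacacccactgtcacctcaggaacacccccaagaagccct
Isg15 (chr4:156200819-156201068, minus strand): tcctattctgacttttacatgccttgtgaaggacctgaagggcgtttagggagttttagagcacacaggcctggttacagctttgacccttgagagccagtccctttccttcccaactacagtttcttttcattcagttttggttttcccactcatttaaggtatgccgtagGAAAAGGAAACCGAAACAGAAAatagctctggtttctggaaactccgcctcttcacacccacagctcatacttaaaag
Rsad2 (chr12:26456453-26456702, minus strand): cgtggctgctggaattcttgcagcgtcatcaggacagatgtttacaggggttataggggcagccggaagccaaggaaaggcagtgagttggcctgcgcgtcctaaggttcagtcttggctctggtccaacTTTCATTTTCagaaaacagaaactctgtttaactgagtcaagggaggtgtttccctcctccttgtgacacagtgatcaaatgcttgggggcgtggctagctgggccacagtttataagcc
Ifit1 (chr19:34640639-34640870, plus strand): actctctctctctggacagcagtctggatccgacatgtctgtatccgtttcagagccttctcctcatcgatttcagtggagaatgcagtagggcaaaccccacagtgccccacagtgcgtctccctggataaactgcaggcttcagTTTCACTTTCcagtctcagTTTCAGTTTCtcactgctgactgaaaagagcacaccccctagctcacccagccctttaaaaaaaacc
Slfn5 (chr11:82951852-82951984, plus strand): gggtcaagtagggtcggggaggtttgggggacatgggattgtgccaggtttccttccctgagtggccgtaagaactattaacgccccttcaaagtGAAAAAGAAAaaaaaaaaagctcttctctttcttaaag
Igtp (chr11:58199306-58199555, plus strand): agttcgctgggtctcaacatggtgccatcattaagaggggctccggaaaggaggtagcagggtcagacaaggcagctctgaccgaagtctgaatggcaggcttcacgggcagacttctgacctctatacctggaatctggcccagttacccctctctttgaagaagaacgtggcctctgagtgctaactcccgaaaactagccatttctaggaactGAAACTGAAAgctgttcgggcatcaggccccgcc
Lgals3bp (chr11:118402093-118402209, minus strand): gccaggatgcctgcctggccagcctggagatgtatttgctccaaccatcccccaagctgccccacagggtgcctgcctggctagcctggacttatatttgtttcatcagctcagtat
Xaf1 (chr11:72301379-72301628, plus strand): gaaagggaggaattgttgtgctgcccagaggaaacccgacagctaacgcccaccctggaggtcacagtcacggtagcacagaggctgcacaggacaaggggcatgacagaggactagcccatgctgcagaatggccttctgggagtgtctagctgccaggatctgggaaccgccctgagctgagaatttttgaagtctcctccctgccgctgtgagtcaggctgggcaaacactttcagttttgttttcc

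The first base of the match lay 75 bases before the RefSeq start of *Oas3*, 120 before that of *Rsad2*, 155 before that of *Slfn5* and 34 before that of *Igtp*. The *Slfn5* window lies inside the gene as annotated in GENCODE M21, where it starts at 82951349, and so is not upstream of that start. *Isg15* held 3 overlapping matches, between 78 and 66 bases before the start, and *Ifit1* held 2, at 104 and 85. *Lgals3bp* and *Xaf1*, shown for contrast, held none of these letters in the window. In all, 12 of the 33 matched genes (36.4%) held the ISRE core, beside 978 of 32851 windows of all genes (2.98%) and 273 of the 8485 matched symbols tested (3.22%). The 12 were *Bst2*, *Gbp3*, *Gbp7*, *Ifit1*, *Igtp*, *Irgm1*, *Isg15*, *Oas3*, *Rsad2*, *Slfn5*, *Stat2* and *Trim30a*. The GAS core, TTCNNNGAA, which reads the same on both strands and can overlap an ISRE match, was in the windows of 8 of 33 genes (24.2%), beside 7.02% of all windows. A match describes letters and is not a site of binding, and many response elements lie outside such a window.

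The interferon response genes stood higher in Hoxa-flox than in WT-GFP, the comparison of floxed with wild type leukemic cells under the same control virus. Of the 44 genes, 22 rose (50.0%, beside 13.3% of all symbols tested) and 0 fell (beside 13.5%; also 0 at an unadjusted p under 0.05, beside 19.0%), in limma at a Benjamini-Hochberg adjusted p under 0.05 over all symbols. Without the 5 genes that were under 1 FPKM in both WT groups, 17 of 39 rose (43.6%, beside 13.3% of all symbols). The median change was 0.98 on the scale log2(FPKM + 1), on which changes are given throughout and which understates the change of low genes, and the median over all symbols was 0.00. The groups did not overlap for 26 genes, all higher in Hoxa-flox, beside 23.9% of all symbols. The WT libraries were tight and the floxed libraries were not: the median SD of these genes was 0.817 in Hoxa-flox and 0.719 in Hoxa-del but 0.102 in WT-GFP and 0.139 in WT-Cre. Over all symbols it was 0.290, 0.357, 0.116 and 0.124 in the same order.

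**Figure D1:**
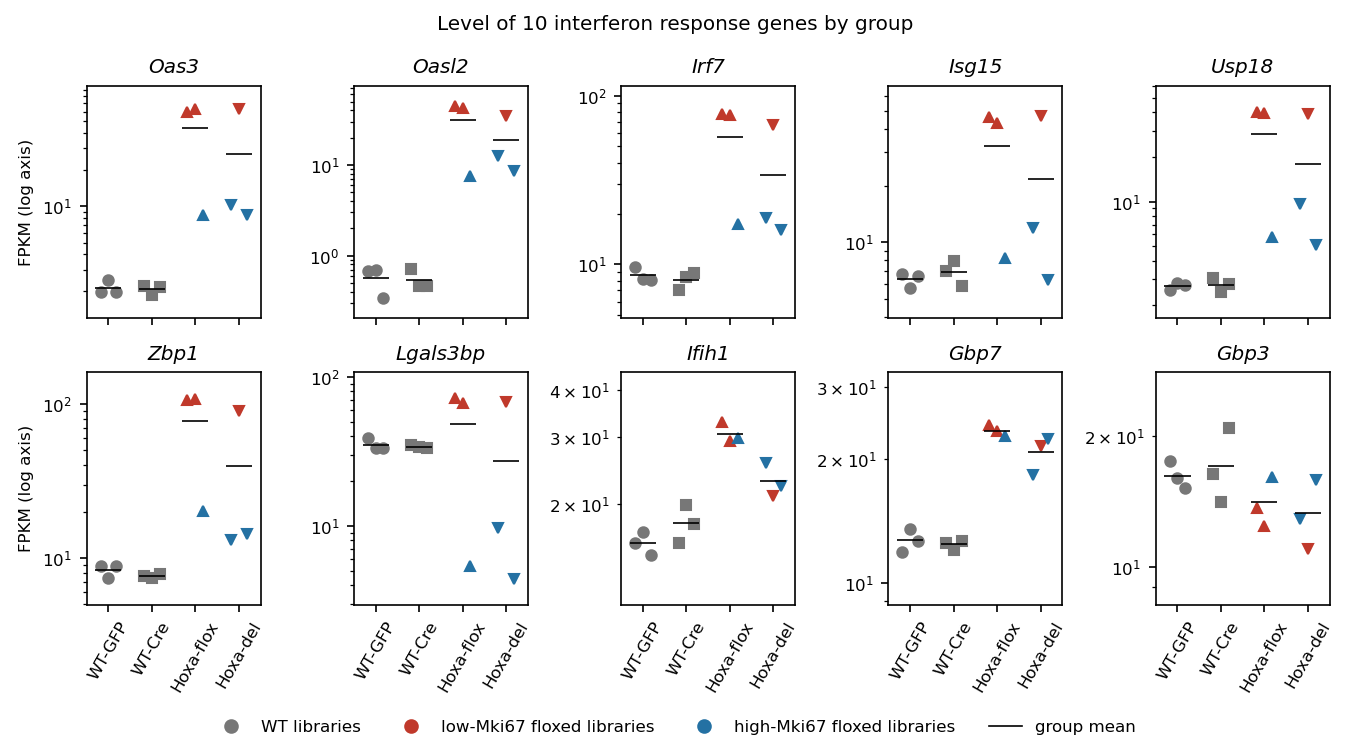
Level of 10 interferon response genes by group, in FPKM (log axis); points are libraries, lines are group means, and the colour marks WT libraries and the low-Mki67 and high-Mki67 sets of floxed libraries. For Oas3, Irf7, Isg15, Usp18, Zbp1 and Lgals3bp, 2 Hoxa-flox libraries and 1 Hoxa-del library stand together above the rest, while Ifih1, Gbp7 and Gbp3 do not show this split.

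The family of oligoadenylate synthetases (OAS), which make the messenger that activates RNase L, held the 2 largest changes among the 44 genes. *Oasl2*, an OAS-like protein with a ubiquitin-like tail, was at 0.669, 0.692 and 0.339 FPKM in WT-GFP and at 44.7, 41.9 and 7.48 in Hoxa-flox. The lowest Hoxa-flox library lay above every WT-GFP library, and the gene rose by 4.03 (SE 0.61, limma adjusted p = 0.000557). *Oas3*, an enzyme that senses long double-stranded RNA, was at 1.94, 2.46 and 1.97 FPKM in WT-GFP and at 60.1, 62.9 and 8.41 in Hoxa-flox (change 3.42, SE 0.77, limma adjusted p = 0.00709). Again the groups did not overlap, and 2 of the 3 floxed libraries stood far above the third. *Oasl1*, a repressor of *Irf7* translation, rose from a mean of 0.617 ± 0.317 to 2.59 ± 1.57 FPKM (SD, n = 3 libraries; limma adjusted p = 0.0443). *Oas2* averaged 15.9 ± 2.03 and 29.2 ± 14.0 FPKM and did not pass (limma adjusted p = 0.167).

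Among sensors of nucleic acid, *Zbp1*, which binds Z-form DNA and RNA and can start necroptosis, was at 8.90, 7.42 and 8.92 FPKM in WT-GFP and 106, 108 and 20.1 in Hoxa-flox. It rose by 2.74 (SE 0.72, limma adjusted p = 0.0157), with no overlap. *Ifih1* (MDA5, a sensor of long double-stranded RNA) had an even rise, from 15.8, 16.9 and 14.7 to 32.9, 29.4 and 29.8 FPKM (change 0.92, SE 0.13, limma adjusted p = 0.000332). Its 3 floxed libraries lay close together, unlike those of *Zbp1*. *Ddx58* (RIG-I) and *Dhx58* (LGP2) did not pass (limma adjusted p = 0.460 and 0.174).

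The antiviral effectors made up 12 of the 44 genes, and 7 of them rose. *Rsad2* (viperin, which makes a chain-terminating nucleotide) was at 1.51, 1.69 and 1.82 FPKM in WT-GFP and 21.7, 22.6 and 3.94 in Hoxa-flox (change 2.37, SE 0.58, limma adjusted p = 0.0105). *Mx1*, a dynamin-like GTPase that blocks influenza polymerase, was at 0.205, 0.133 and 0.118 FPKM and then 7.44, 7.19 and 1.45 (change 2.26, SE 0.44, limma adjusted p = 0.00305). Both were higher in every Hoxa-flox library than in any WT-GFP library. *Slfn5*, *Mx2*, *Cmpk2*, *Eif2ak2* and *Bst2* rose by 2.05, 1.76, 1.61, 1.50 and 1.25. Of these, *Eif2ak2* (PKR, a kinase that stops translation on double-stranded RNA) had by far the highest level, 383 ± 18.9 and 1132 ± 398 FPKM (SD, n = 3 libraries), in a row whose locus also overlaps an annotated ribosomal RNA gene on the other strand. *Isg20*, *Samhd1*, *Adar*, *Trex1* and *Rtp4* did not pass, at changes from 0.19 to 1.24.

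Of the IFIT proteins, which bind viral RNA, *Ifit1* was at 0.707, 0.432 and 0.375 FPKM in WT-GFP and 13.1, 14.8 and 3.26 in Hoxa-flox. It rose by 2.71 (SE 0.50, limma adjusted p = 0.00218), with no overlap. *Usp18*, the protease that removes ISG15 and damps receptor signalling, was at 2.54, 2.83 and 2.74 FPKM and then 40.2, 39.5 and 5.80 (change 2.60, SE 0.72, limma adjusted p = 0.0202). *Irf7*, the factor that amplifies interferon production, was at 9.69, 8.15 and 8.06 FPKM and then 77.8, 76.6 and 17.3 (change 2.33, SE 0.58, limma adjusted p = 0.0118). For these 3 genes, too, the first and second Hoxa-flox libraries stood together and the third lay between them and WT-GFP. *Isg15* itself missed the threshold (change 1.86, SE 0.68, limma adjusted p = 0.0656), and Hoxa-flox 3, at 8.22 FPKM, lay near the WT-GFP values of 6.79, 5.71 and 6.60.

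*Herc6*, the main ligase for ISG15 in mouse, rose by 0.68, and *Trim30a* and *Ifi35* by 0.57 and 0.96. *Tap1* and *Psmb8*, which carry peptides into the endoplasmic reticulum and cut them in the immunoproteasome, rose by 1.25 and 1.18, and the 3 antigen-processing genes had a median of 1.18. *Ifi27l2a* rose by 2.04 and the guanylate-binding protein gene *Gbp7* by 0.84. The lowest values of the list were those of *Ifi27* (-0.23), *Gbp3* (-0.20) and *Lgals3bp* (-0.19), none of which passed.

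**Figure D2:**
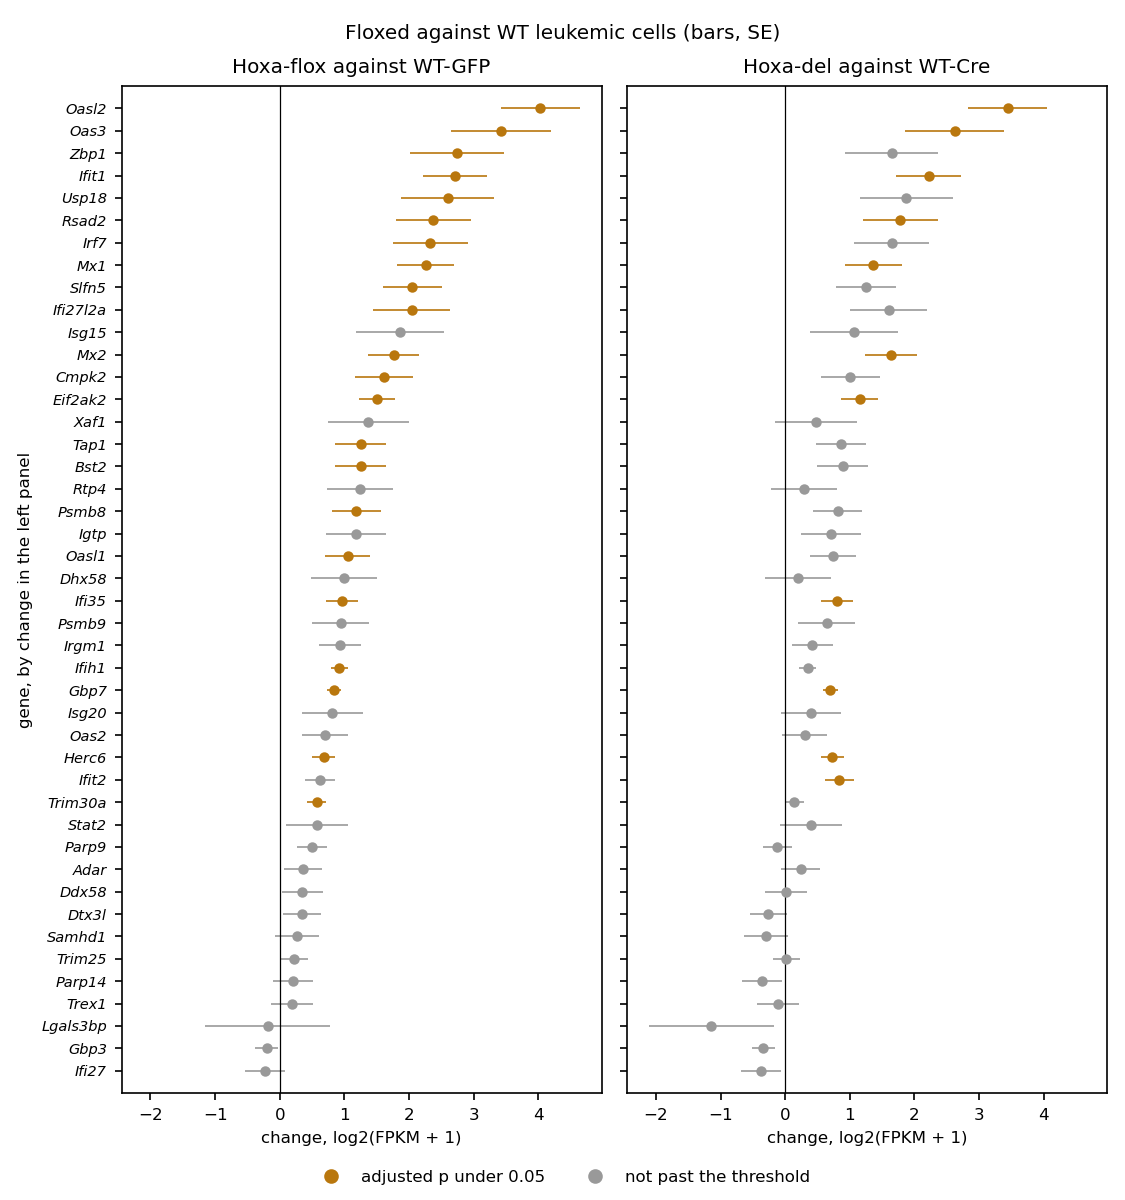
Change of each of the 44 genes on the scale log2(FPKM + 1), in Hoxa-flox against WT-GFP (left) and Hoxa-del against WT-Cre (right); points are fitted changes, bars their SE, and colour marks an adjusted p under 0.05. On the left 22 genes passed and on the right 11, all of them to the right of 0, with Oasl2 the farthest in both panels.

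After Cre the same question was asked of Hoxa-del against WT-Cre, in other libraries of both genotypes. Here 11 of 44 genes rose (25.0%, beside 13.0% of all symbols) and 0 fell (beside 14.2%; also 0 at an unadjusted p under 0.05, beside 19.6%). Without the 5 genes low in WT, which had to differ, 7 of 39 rose (17.9%), a share nearer to the 13.0% of all symbols. The median change was 0.70, with 0.00 over all symbols, and 22 genes had no overlap, all higher in Hoxa-del, beside 20.7% of all symbols. *Oasl2* was at 0.708, 0.462 and 0.462 FPKM in WT-Cre and 12.6, 34.8 and 8.56 in Hoxa-del (change 3.44, SE 0.61, limma adjusted p = 0.00165). *Oas3* was at 2.20, 1.85 and 2.16 FPKM and then 10.2, 62.5 and 8.39 (change 2.62, SE 0.77, limma adjusted p = 0.0273). In both genes the second Hoxa-del library stood above the other two. *Ifit1* was at 0.617, 0.281 and 0.500 FPKM and then 4.36, 12.7 and 3.26 (change 2.22, SE 0.50, limma adjusted p = 0.00731). *Rsad2* was at 1.96, 1.49 and 2.14 FPKM and then 5.58, 20.5 and 5.67 (change 1.78, SE 0.58, limma adjusted p = 0.0409).

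*Mx2*, whose mouse locus GENCODE M21 lists as a polymorphic pseudogene, was at 0.591, 0.228 and 0.207 FPKM in WT-Cre and 3.62, 4.24 and 1.96 in Hoxa-del (change 1.64, SE 0.40, limma adjusted p = 0.0115). *Mx1* was at 0.208, 0.488 and 0.277 FPKM and then 2.61, 4.07 and 1.12 (change 1.36, SE 0.44, limma adjusted p = 0.0417). Neither gene's groups overlapped. *Eif2ak2* was at 344, 451 and 399 FPKM and then 716, 1262 and 756 (change 1.15, SE 0.28, limma adjusted p = 0.0109). *Ifit2* was at 1.07, 1.44 and 0.801 FPKM and then 3.53, 1.88 and 2.96 (change 0.84, SE 0.23, limma adjusted p = 0.0185). *Ifit2* differs from the others named in that its second Hoxa-del library was its lowest. *Gbp7*, *Herc6* and *Ifi35* also rose, by 0.70, 0.73 and 0.80. Of the 11 genes, 10 had risen in Hoxa-flox against WT-GFP too, which is 45.5% of the 22 genes of that comparison and 90.9% of these 11. The same overlap was not counted over all symbols, and both comparisons set the same genotypes side by side. Among the 11 were 4 of the 5 genes low in WT, which had to differ.

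Both counts moved when 1 library was left out, and the share over all symbols moved as well. Without Hoxa-flox 3 the count in Hoxa-flox against WT-GFP was 35 (79.5%, beside 16% of all symbols), and without Hoxa-flox 1 or Hoxa-flox 2 it was 10 (22.7%, beside 10% and 9.73%). Leaving out WT-GFP 1, 2 or 3 gave 13, 14 and 13 (beside 10%, 9.02% and 8.9%). In Hoxa-del against WT-Cre the count was 6, 7 and 6 without WT-Cre 1, 2 or 3 (beside 9.14%, 9.53% and 8.85%), where 6 genes are 13.6% of the 44. It was 9, 8 and 13 without Hoxa-del 1, 2 or 3 (beside 14.1%, 13.2% and 10.9%), where 8 genes are 18.2%. These counts still hold genes low in WT, which had to differ. *Oasl2*, *Ifit1* and *Mx2* passed in every left-out fit of Hoxa-del against WT-Cre. *Oasl2*, *Ifit1* and *Mx1* did so in Hoxa-flox against WT-GFP. The shares without such genes were not counted here, so the smaller counts are not read as above the share of all symbols. With the low-Mki67 libraries alone, 41 genes rose in Hoxa-flox (beside 27.5% of all symbols) and 39 in Hoxa-del (beside 30%), where 1 fell. With the high-Mki67 libraries alone, 17 rose and 5 fell in Hoxa-flox (beside 21.1% and 21.5%), and 20 rose and 8 fell in Hoxa-del (beside 22% and 23.7%). The low-Mki67 fit has 1 Hoxa-del library and the high-Mki67 fit 1 Hoxa-flox library, which is assumed to vary like the other groups.

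Libraries of floxed cells differed among themselves in these genes. For 38 of 44 genes (86.4%) every low-Mki67 library lay above every high-Mki67 library, beside 31.7% of all symbols, and for *Ifit2* alone it was the other way round, beside 23.1%. In 27 genes the sets also differed by more than 1 on the log2 scale, beside 6.68% of all symbols. The median difference was 1.31, with 0.08 over all symbols. It was 1.42 within Hoxa-flox (2 libraries against 1) and 1.20 within Hoxa-del (1 against 2), so libraries of the same group differed. In each library's own terms, the median level of the 44 genes was 41.6, 40.1 and 35.2 FPKM in Hoxa-flox 1, Hoxa-flox 2 and Hoxa-del 2. It was 14.6, 14.4 and 13.4 FPKM in Hoxa-flox 3, Hoxa-del 1 and Hoxa-del 3, and 11.7 to 13.0 in the 6 WT libraries, while the median of all tested symbols stayed between 9.98 and 10.5 everywhere.

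**Figure D3:**
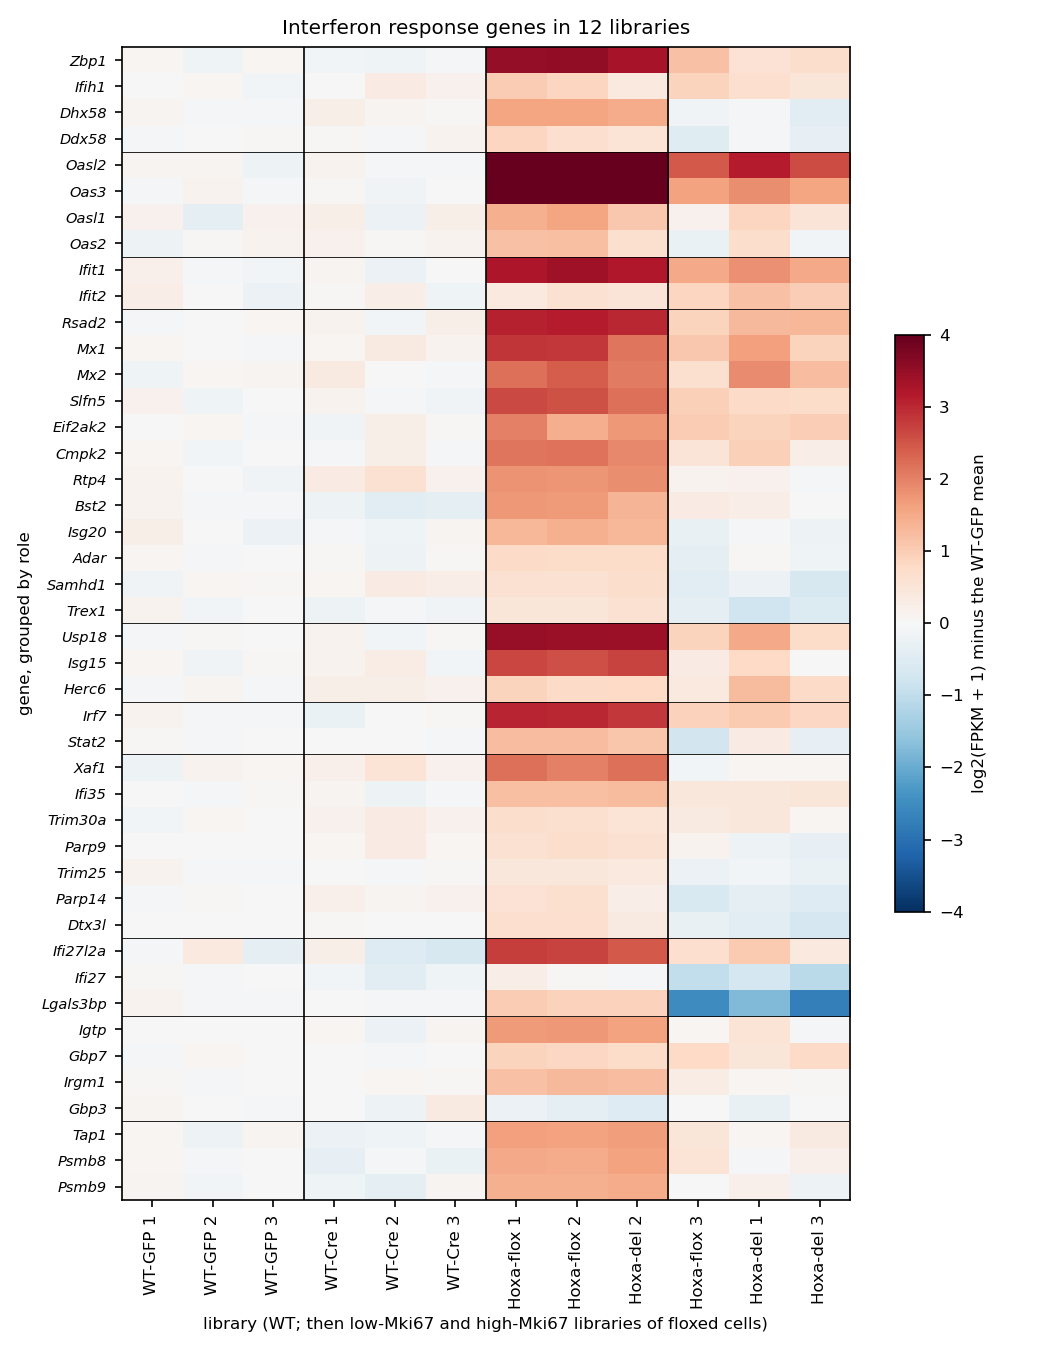
Level of the 44 genes in 12 libraries as log2(FPKM + 1) minus the mean of WT-GFP, with genes grouped by role and libraries ordered as WT-GFP, WT-Cre, low-Mki67 and high-Mki67; colours end at 4 in either direction. The 3 low-Mki67 columns are red in nearly every row, whereas the 3 high-Mki67 columns hold both red rows, such as Oasl2 and Oas3, and blue ones, such as Lgals3bp.

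The largest set difference among the 44 genes was that of *Lgals3bp*, a secreted scavenger-receptor protein that binds galectins. It was at 71.5, 66.6 and 67.8 FPKM in the low-Mki67 libraries and 5.34, 9.62 and 4.43 in the high-Mki67 libraries (difference 3.28), and at 33.1 to 38.8 in the WT libraries. It thus lay above the WT range in the first set and below it in the second. *Oas3* (difference 2.66) was at 60.1, 62.9 and 62.5 FPKM and then 8.41, 10.2 and 8.39. *Zbp1* (2.62) was at 106, 108 and 90.7 FPKM and then 20.1, 13.0 and 14.4. *Usp18* (2.41) was at 40.2, 39.5 and 38.7 FPKM and then 5.80, 9.61 and 5.13. For these 3 genes the high-Mki67 libraries lay above the WT range.

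*Isg15*, the ubiquitin-like modifier, was at 46.2, 43.1 and 46.8 FPKM in the low-Mki67 libraries and 8.22, 11.9 and 6.31 in the high-Mki67 libraries (difference 2.28). With WT libraries between 5.71 and 7.96 FPKM, its high-Mki67 values reached into the WT range. *Xaf1*, a pro-apoptotic antagonist of XIAP, was at 48.2, 43.0 and 48.7 FPKM and then 8.92, 10.4 and 10.5 (2.12), the latter within its WT range of 8.32 to 14.8. *Irf7* was at 77.8, 76.6 and 66.7 FPKM and then 17.3, 18.9 and 15.9 (2.02). *Oasl2* was at 44.7, 41.9 and 34.8 FPKM and then 7.48, 12.6 and 8.56 (2.00). Both stayed above their WT ranges in all floxed libraries.

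By role, the set difference had a median of 2.28 over the 3 genes of ISG15 conjugation and feedback, of which *Herc6* had 0.01. It was 1.93 over the 3 small interferon-inducible proteins, 1.73 over the 2 transcription factors and 0.58 over the 2 IFIT genes. It was 1.45 over the 4 OAS genes, 1.40 over the 12 antiviral effectors and 1.38 over the 4 sensors. It was 1.32 over the 3 antigen-processing genes: *Psmb8*, for one, was at 268, 257 and 283 FPKM and then 134, 90.0 and 105. *Tap1* was at 66.6, 64.7 and 68.4 FPKM and then 29.6, 22.1 and 26.7. The 7 ubiquitin ligases, ADP-ribosylation enzymes and adaptors had 0.77, with *Parp9* and *Dtx3l*, partners in 1 complex, at 0.77 and 1.04. Another row named *Parp9* did not follow the split, at 3.45, 4.02 and 5.64 FPKM in the low-Mki67 and 3.86, 9.13 and 7.32 in the high-Mki67 libraries. *Stat2*, a subunit of the ISRE-binding complex, was at 23.7, 23.9 and 21.8 FPKM and then 5.30, 12.2 and 7.35 (1.44), with WT libraries at 8.99 to 9.89. The 4 GTPase genes had 0.61, made up of *Igtp* (1.49) and *Irgm1* (1.10) on one side and *Gbp7* and *Gbp3* on the other.

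Among the effectors, *Bst2* was at 143, 141 and 111 FPKM in the low-Mki67 and 53.5, 51.6 and 43.4 in the high-Mki67 libraries (1.39), with 30.7 to 47.6 in WT. *Cmpk2*, a mitochondrial nucleotide kinase, was at 35.4, 36.4 and 30.7 FPKM and then 11.0, 15.1 and 9.04 (1.49), with 6.78 to 8.85 in WT. *Rtp4*, a chaperone of membrane receptors, was at 25.8, 25.0 and 26.9 FPKM and then 7.41, 7.66 and 6.39 (1.72), with 5.87 to 10.6 in WT. The high-Mki67 values of *Cmpk2* stayed above the WT range, whereas those of *Rtp4* lay inside it. *Isg20*, an exonuclease of single-stranded RNA, was at 25.3, 27.0 and 25.3 FPKM and then 7.53, 9.14 and 8.17 (1.54), with 7.87 to 11.3 in WT. *Adar*, which edits adenosine in double-stranded RNA, was at 51.4, 49.7 and 50.2 FPKM and then 22.2, 30.8 and 26.1 (0.92), with 25.9 to 31.7 in WT. In both genes the low-Mki67 libraries were nearly equal and stood apart from all others.

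The sensors *Dhx58* and *Ddx58* did not pass against WT but split by set. *Dhx58*, a regulator of the other RNA sensors, was at 68.0, 66.9 and 63.2 FPKM in the low-Mki67 and 19.6, 20.5 and 16.1 in the high-Mki67 libraries (1.77), with 20.9 to 25.7 in WT. *Ddx58* was at 43.1, 37.9 and 34.4 FPKM and then 16.2, 22.1 and 18.4 (0.99), with 22.2 to 25.9 in WT. Both were thus above the WT range in the low-Mki67 set and below it in the high-Mki67 set. *Ifi27*, a small mitochondrial and membrane protein, had a like order, at 119, 102 and 95.0 FPKM and then 49.9, 61.0 and 46.2, but its low-Mki67 values reached into the WT range of 73.0 to 103. Its neighbour *Ifi27l2a* was at 40.1, 38.3 and 32.0 FPKM and then 8.61, 11.6 and 7.03 (1.93), with 2.92 to 6.99 in WT. The GTPase gene *Igtp* (Irgm3), which acts on vacuoles that hold pathogens, was at 40.2, 40.6 and 37.4 FPKM and then 12.4, 17.5 and 11.0, with 9.76 to 12.6 in WT.

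Of the genes below the mean of 1 FPKM, *Ifit3* was at 2.46, 2.29 and 1.49 FPKM in the low-Mki67 and 0.703, 0.945 and 0.740 in the high-Mki67 libraries, with 0 to 0.238 in WT. *Ifi44* stayed below 1 FPKM in every library.

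Some members did not follow the split. *Herc6* had a difference of 0.01, with 6.46, 5.93 and 6.03 FPKM in the low-Mki67 and 4.31, 8.79 and 5.82 in the high-Mki67 libraries. For *Ifih1* it was 0.08, with 32.9, 29.4 and 21.0 FPKM and then 29.8, 25.6 and 22.3. For *Gbp7* it was 0.12, with 24.2, 23.4 and 21.6 FPKM and then 22.8, 18.3 and 22.4. These 3 genes were above the WT range in all 6 floxed libraries, whatever the set. *Gbp3* (-0.26) was at 13.7, 12.4 and 11.0 FPKM and then 16.1, 12.9 and 15.9, with 14.1 to 20.9 in WT. It was the only member with every low-Mki67 library below every WT library (beside 28.4% of all symbols). *Ifit2* (-0.49) was at 1.66, 2.07 and 1.88 FPKM and then 2.65, 3.53 and 2.96.

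Set against the 6 WT libraries, the low-Mki67 libraries were all higher in 42 of 44 genes (95.5%, beside 29.1% of all symbols). The high-Mki67 libraries were all higher in 18 genes (40.9%, beside 22.3%) and all lower in 9 (20.5%, beside 23.7%). The 18 included *Oas3*, *Oasl2*, *Ifit1*, *Ifit2*, *Mx1*, *Mx2*, *Rsad2*, *Irf7*, *Usp18*, *Zbp1*, *Ifih1* and *Eif2ak2*. *Oasl2*, *Ifit1*, *Mx1* and *Mx2*, which were low in WT and had to differ, are among both the 42 and the 18, and *Oasl1* is among the 42. Both shares are raised by these genes, and the shares without them were not counted. The 9 were *Ddx58*, *Dhx58*, *Dtx3l*, *Ifi27*, *Lgals3bp*, *Parp14*, *Samhd1*, *Trex1* and *Trim25*. *Samhd1*, a phosphohydrolase that depletes nucleotides, was at 31.9, 36.8 and 27.6 FPKM in the high-Mki67 libraries and 39.6 to 55.1 in WT. The high-Mki67 libraries thus held a mixed pattern, with a median difference from WT of 0.33, where the low-Mki67 libraries had 1.43.

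Genes with and without the ISRE core in the matched window both followed the split. The 12 with the core had set differences from -0.26 to 2.66 with a median of 1.47, and the 21 without had -0.49 to 3.28 with a median of 1.10. The genes printed above show both: *Oas3*, *Isg15* and *Rsad2* hold the letters, and *Lgals3bp* and *Xaf1* differed between the sets without them.

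**Figure D4:**
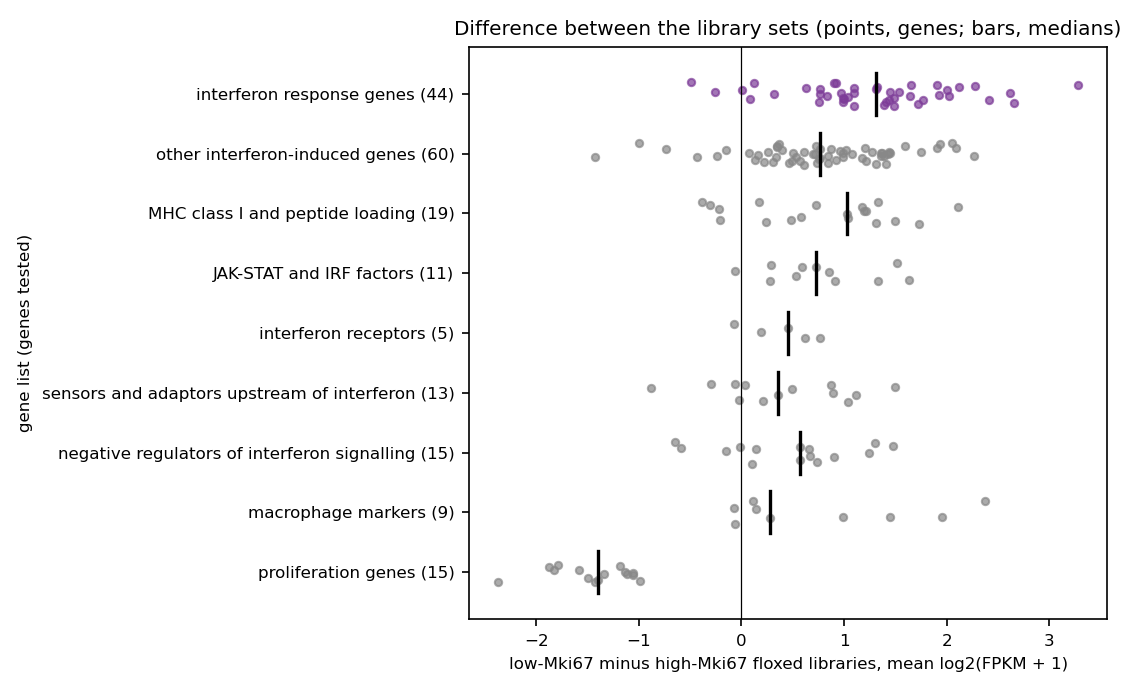
Difference between the means of the low-Mki67 and high-Mki67 floxed libraries on the scale log2(FPKM + 1), for the 44 interferon response genes and for other gene lists; each point is a gene, each bar the median of a list, and the number tested is in brackets. The interferon response genes have a median of 1.31, MHC class I genes 1.03 and the 15 proliferation genes, all of them below 0, -1.40. Tested genes outside the 44 took part in making the sets.

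The rest of the pathway was read from further gene lists. Over all symbols, 13.3% rose and 13.5% fell in Hoxa-flox against WT-GFP, and 13.0% rose and 14.2% fell in Hoxa-del against WT-Cre. Of 21 interferon genes 7 had a row and 0 reached a mean of 1 FPKM. *Ifnk* had the highest values, 0 to 1.41 FPKM, and *Ifna4* was listed at 0 in 11 of 12 libraries, with 0.554 FPKM in WT-Cre 2. Of the 5 receptor genes tested, 0 rose and 2 fell in Hoxa-flox against WT-GFP: *Ifnlr1*, the receptor of interferon lambda, by 1.87 on the log2 scale (limma adjusted p = 2.49e-05) and *Ifngr2*, a chain of the interferon gamma receptor, by 1.06 (limma adjusted p = 0.00372). In Hoxa-del against WT-Cre 0 rose and 3 fell, *Ifnlr1* by 1.85, *Ifngr2* by 1.27 and *Ifnar2*, a chain of the receptor of type I interferon, by 0.99 (limma adjusted p = 0.00877). *Ifnar2* did not pass in Hoxa-flox against WT-GFP (change -0.49, limma adjusted p = 0.147), and the other chain, *Ifnar1*, passed in neither comparison. Of 11 kinase and transcription factor genes, 1 rose in Hoxa-flox (*Jak2*, by 0.46, limma adjusted p = 0.0278) and 0 fell, and 0 passed in Hoxa-del. In 9 of these 11 genes the low-Mki67 libraries all lay above the high-Mki67 libraries, beside 31.7% of all symbols.

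Of 13 sensors and adaptors upstream of interferon, 2 rose and 4 fell in Hoxa-flox (beside 13.3% and 13.5% of all symbols). In Hoxa-del 1 rose and 4 fell (beside 13.0% and 14.2%). The share of rises in Hoxa-flox was close to that of all symbols. The endosomal RNA receptors *Tlr7* and *Tlr8* fell by 2.41 and 1.87 and the kinase *Ikbke* by 1.50, while *Tmem173* (STING, the adaptor of the DNA-sensing pathway) rose by 2.28. *Tmem173* was at 8.53 to 9.74 FPKM in WT-GFP and at 46.4 to 51.0 in Hoxa-flox. Its 3 Hoxa-flox libraries lay close together. Of 15 negative regulators 0 rose and 2 fell in Hoxa-flox, *Nlrx1* by 0.81 and *Tnfaip3* by 0.66, and 0 rose and 1 fell in Hoxa-del. The share of falls in Hoxa-flox was close to that of all symbols.

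A further 60 interferon-induced genes that are not among the 44 were tested, and 12 rose and 3 fell in Hoxa-flox against WT-GFP (beside 13.3% and 13.5% of all symbols), with a median of 0.43. In Hoxa-del against WT-Cre 8 rose and 5 fell (beside 13.0% and 14.2%), a share of rises close to that of all symbols, with a median of 0.11. The largest rise was that of *Ifitm3*, a membrane protein that blocks viral fusion, from 30.4, 31.3 and 32.6 to 455, 459 and 172 FPKM (change 3.35, SE 0.43, limma adjusted p = 0.000177). *Tgtp2* and *Ifitm1* rose by 2.54 and 2.20, and the chemokine *Cxcl9* by 2.04. The split of the floxed libraries was seen in this list too: 42 of 60 had all low-Mki67 libraries above all high-Mki67 libraries and 4 had them below (beside 31.7% and 23.1% of all symbols), with a median difference of 0.77. The 60, like all tested symbols outside the 44, took part in making the sets, so they are no independent sign of the split. Of 19 MHC class I and peptide-loading genes 13 were above and 2 below, with a median of 1.03. Against WT, 1 of the 19 rose in Hoxa-flox (*H2-T22*, by 1.59) and 1 in Hoxa-del, a smaller share than that of all symbols.

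Other transcripts moved with the sets. All 15 proliferation genes were lower in every low-Mki67 library than in any high-Mki67 library, beside 23.1% of all symbols (median -1.40). They include *Mki67*, which named the sets, and all were among the symbols that made the split, so this order was largely fixed in advance. They summed to 264 to 323 FPKM in the low-Mki67 libraries, 670 to 867 in the high-Mki67 libraries and 410 to 503 in WT. The WT libraries thus lay between the sets in proliferation genes. In the summed level of the interferon response genes without *Eif2ak2* they were at 731 to 790 FPKM, within the 704 to 808 of the high-Mki67 libraries and far below the 1907 to 2058 of the low-Mki67 libraries. The 10 macrophage markers summed to 250 to 259 FPKM in the low-Mki67, 63.1 to 71.2 in the high-Mki67 and 330 to 376 in the WT libraries. Within that list *Cd68* was at 126, 129 and 121 FPKM in the low-Mki67 and 23.1, 24.4 and 22.7 in the high-Mki67 libraries, whereas *C1qa*, *C1qb* and *C1qc*, which mark mature tissue macrophages, were at 0 in all high-Mki67 libraries. *C1qa* was at most 0.162 FPKM in the low-Mki67 libraries and at 20.9 to 29.5 in WT. Of the 9 macrophage markers tested, 6 fell and 0 rose in each comparison of floxed with WT cells. Over all symbols 13.5% fell and 13.3% rose in Hoxa-flox, and 14.2% fell and 13.0% rose in Hoxa-del. In bulk RNA, more cells of a kind and more RNA per cell cannot be told apart.

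Markers of other cells differed between floxed and WT libraries. Of 8 markers of plasmacytoid dendritic cells, the main makers of type I interferon, 6 had a row, and they summed to 24.7 to 40.5 FPKM in the WT and 73.8 to 105 in the floxed libraries. The rise lay in the transcription factor genes *Tcf4* and *Runx2*, which rose by 2.06 and 1.81 in Hoxa-flox and by 1.73 and 1.39 in Hoxa-del, while *Cox6a2* fell by 1.10 in Hoxa-flox. *Siglech* and *Ly6d*, surface markers of these cells, stayed at or below 0.275 FPKM in all libraries. By set the list summed to 73.8 to 94.6 FPKM in the low-Mki67 and 88.6 to 105 in the high-Mki67 libraries, so that the sets overlapped.

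The 8 T and NK cell markers with a row, of 12, summed to 42.0 to 115 FPKM in the WT and 19.9 to 85.3 in the floxed libraries. Most of this was *Klrb1c*, at 35.9 to 107 and 7.65 to 75.7 FPKM. The kinase gene *Lck* rose by 2.45 in Hoxa-flox and 2.05 in Hoxa-del, *Nkg7* fell by 1.27 in Hoxa-flox, and *Cd3e*, *Cd2*, *Cd8a* and *Klrd1* were at 0 in all floxed libraries. The 7 megakaryocyte markers summed to 150 to 172 FPKM in the WT and 5.97 to 16.1 in the floxed libraries. Of the 5 tested, 3 fell in each comparison (beside 13.5% of all symbols in Hoxa-flox and 14.2% in Hoxa-del). B cell and erythroid markers each summed to at most 5.64 FPKM in any library. The part of these markers, of the macrophage markers and of the proliferation genes in the results was not tested.

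Deletion of the Hoxa cluster was tested as Hoxa-del against Hoxa-flox. Of the 44 genes 0 rose (beside 0.00759% of all symbols) and 0 fell (beside 0.0228%) in limma. At an unadjusted p under 0.05, 0 were higher (beside 2.86% of all symbols) and 1 was lower (2.27%, beside 3.42%). The fitted change was below 0 for 42 of 44 genes (beside 58.4%), with a median of -0.47 where all symbols had -0.06. Hoxa-flox held 2 low-Mki67 libraries and Hoxa-del 1. With the set as a term in the fit the median was 0.00, and 0 genes passed. Within the low-Mki67 set (Hoxa-del 2 against Hoxa-flox 1 and 2) the median was -0.11 and 33 of 44 genes were lower (beside 49.4%). Within the high-Mki67 set (Hoxa-del 1 and 3 against Hoxa-flox 3) it was 0.07 and 17 were lower (beside 56.2%). Without Hoxa-del 2, 2 genes fell (4.55%, beside 3.54% of all symbols) and the median was -0.91.

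The smallest p belonged to *Ifih1*, at 32.9, 29.4 and 29.8 FPKM in Hoxa-flox and 25.6, 21.0 and 22.3 in Hoxa-del (change -0.41, SE 0.13, limma adjusted p = 0.729, unadjusted p = 0.00879). The groups did not overlap, as in 2 of 44 genes lower in Hoxa-del without overlap (4.55%, beside 4.14% of all symbols), and the change was -0.55 in the low-Mki67 and -0.31 in the high-Mki67 set. *Dtx3l*, *Parp9* and *Slfn5* followed, with changes of -0.59, -0.46 and -0.82 and the same limma adjusted p of 0.729. *Slfn5* was at 29.1, 27.0 and 8.28 FPKM in Hoxa-flox and 7.16, 20.9 and 6.97 in Hoxa-del, so that its groups overlapped. *Dtx3l* and *Parp9* lie head to head and overlap on chromosome 16. Another row named *Parp9* was lower, not higher, in Hoxa-flox (3.45, 4.02 and 3.86 FPKM) than in WT-GFP (12.2, 10.1 and 9.37). In Hoxa-del that row was at 9.13, 5.64 and 7.32 FPKM, above Hoxa-flox without overlap and so against the direction of the row used. The split of reads between such rows is therefore uncertain. Besides *Ifih1*, the changes of *Bst2*, *Dhx58*, *Dtx3l*, *Eif2ak2*, *Gbp3*, *Gbp7*, *Irgm1*, *Parp9*, *Slfn5*, *Trim30a* and *Zbp1* were below 0 in both sets, which makes 12 genes of 44. Over all symbols 49.4% were below 0 in the low-Mki67 and 56.2% in the high-Mki67 set. The share below 0 in both was not counted, so the 12 are not read as a fall with Cre.

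**Figure D5:**
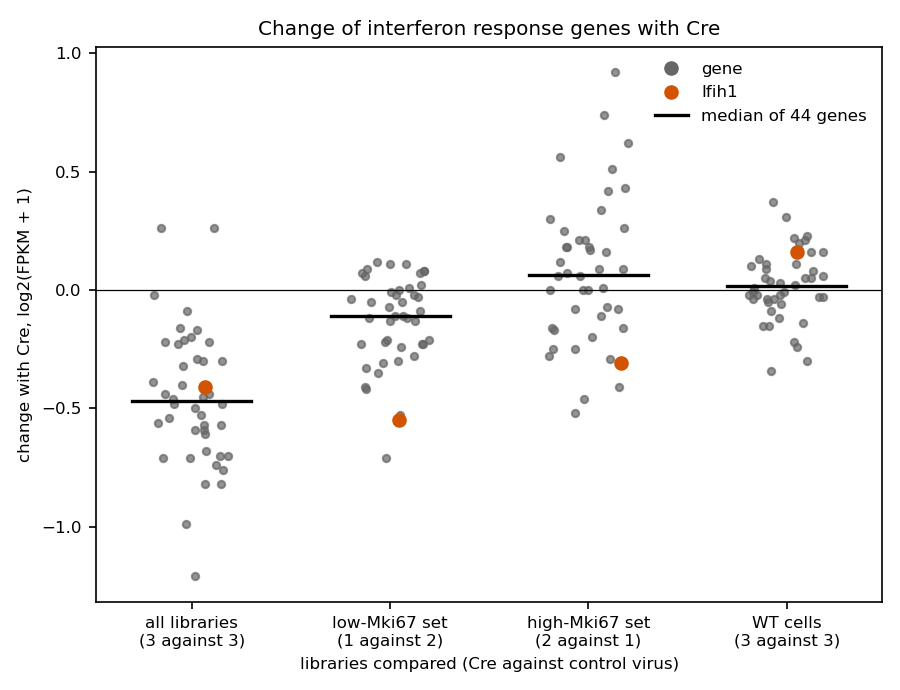
Change of each of the 44 genes with Cre against control virus on the scale log2(FPKM + 1), over all floxed libraries, within each set of floxed libraries and in WT cells; points are genes, lines are medians of 44 genes, and Ifih1 is in orange. The median is -0.47 over all floxed libraries, -0.11 and 0.07 within the sets and 0.02 in WT cells.

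In WT cells, Cre virus and control virus were compared to see what the virus did without a floxed target. Of the 44 genes 0 rose (beside 0.00759%) and 0 fell (beside 0.00759%), in limma. At an unadjusted p under 0.05, 0 were higher (beside 1.15%) and 0 lower (beside 1.21%). The median change was 0.02, with -0.03 over all symbols, and all changes lay between -0.34 and 0.37. The estimate of spread in this fit was shared by all 4 groups, and the floxed libraries varied far more, so small changes in WT cells could hardly pass. A fit of the WT groups alone gave 3 higher and 3 lower genes at an unadjusted p under 0.05 (13.6% together, beside 16.7% of all symbols). In that fit, too, 0 genes passed the adjusted threshold. The SE of *Bst2* was 0.39 in the fit of 4 groups and 0.10 in that of the WT groups. The smallest p belonged to *Trim30a*, at 14.2, 16.4 and 15.5 FPKM in WT-GFP and 17.3, 19.5 and 17.4 in WT-Cre (change 0.23, SE 0.15, limma adjusted p = 1). Its groups did not overlap, and *Ifih1*, *Herc6* and *Bst2* followed with 0.16, 0.21 and -0.34. *Bst2* (tetherin, which holds budding virus at the membrane) was at 47.6, 40.6 and 40.4 FPKM and then 37.1, 30.7 and 33.1. Without overlap, 7 genes were higher in WT-Cre (15.9%, beside 9.31% of all symbols) and 2 lower (4.55%, beside 16.3%).

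The difference between the change with Cre in floxed and in WT cells (the interaction) passed for 0 of 44 genes in either direction (beside 0.00759% higher and 0% lower of all symbols). At an unadjusted p under 0.05, 0 were higher (beside 1.21%) and 1 was lower (beside 1.25%), again *Ifih1* (difference -0.57, SE 0.18, limma adjusted p = 1, unadjusted p = 0.00918). *Trim30a*, *Parp9* and *Dtx3l* had differences of -0.42, -0.62 and -0.60. The median was -0.45, and 0.00 with the set as a term.

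The 44 genes lie on 14 chromosomes (GENCODE M21, GRCm38), with 8 on chromosome 11 and 6 on chromosome 16. The 4 OAS genes kept lie on chromosome 5 between 114896936 and 120777661, and *Ifit1* and *Ifit2* lie within 99.3 kb on chromosome 19. These neighbours did not move alike: the set difference was 2.00 for *Oasl2* and 0.83 for *Oasl1*, and 1.65 for *Ifit1* and -0.49 for *Ifit2*. Whether reads were assigned by strand is not given in the sources used here. The levels of *Psmb9* and *Tap1*, and of *Irf7* and *Phrf1*, whose loci overlap on opposite strands, may therefore share reads. *Igtp* overlaps *Irgm2* on the same strand, and *Irgm2* had no row, so the level of *Igtp* may hold reads of both.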

How the data were processed

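The members and all gene lists were chosen with earlier results of these data known. Stranded libraries were made after ribosomal RNA depletion, per the labels' protocols. The authors deposited 1 table of gene symbols by libraries, and its values were taken as FPKM, since the submitters' processing notes name Cufflinks, Cuffdiff 2.2.2.20150701 and STAR, and its header names no unit. The sources used here do not give the annotation or the scaling between libraries. Every one of the 12 columns was matched to a sample (0 were not).

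Of 25263 symbols, 1855 had several rows, of which the one with the highest mean was used; whether a row holds merged loci was not tested. Fragments per library are not stated. Ratios of values under 0.3 FPKM put relative depth between 0.211 (WT-Cre 2) and 1.00 (WT-GFP 3), with 36.1% to 49.4% of these ratios within 0.02 on the log2 scale of whole-number steps, so depth is rough and low levels are the least precise.

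The 13169 symbols averaging 1 FPKM or more were fitted as log2(FPKM + 1) in limma 3.58.1 (limma-trend, under R 4.3.3), with 4 groups, 5 contrasts and Benjamini-Hochberg adjustment at 0.05; the fit was tested on simulated data. Levels are mean ± SD of 3 libraries. Tables used Python 3.11.15, pandas 2.3.3 and numpy 2.4.6. Statistics were given for up to 8 genes per contrast with the largest rise past the threshold and no overlap, or else the 4 with the smallest p, and for the 8 largest and 4 smallest set differences. *Ifit2* and *Isg15* were also described outside that rule, chosen after their values were seen, and all other members by level. From other lists up to 4 genes past the threshold were named. Alternatives were a pseudocount of 0.1, no filter, equal upper quartiles, the replicate number or the library set as a term, only the groups compared, each library left out, and, added after the data were seen, each library set alone.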

Additional observations from a re-analysis of the deposited data

How the results depend on the processing

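Results of the fits were repeated with a pseudocount of 0.1, without the filter, with equal upper quartiles, with the groups compared alone and with each library left out, and the direction of no named gene reversed. Of 196 values of named genes under settings other than a left-out library, 191 kept their side of the threshold and 5 no longer passed. Of 192 with 1 library left out, 164 kept it, 27 no longer passed and 1 newly passed. Both totals include genes named for the smallest p, which had not passed and so could not be lost. Genes lost in at least 1 setting were *Zbp1*, *Usp18* and *Irf7* in Hoxa-flox against WT-GFP and *Oas3*, *Rsad2*, *Mx1* and *Ifit2* in Hoxa-del against WT-Cre. *Mx1* and *Ifit2* were each lost in 6 of 13 settings. In Hoxa-flox against WT-GFP the genes called higher numbered 10 to 35 with 1 library left out and 41 with the low-Mki67 libraries alone; with the high-Mki67 libraries alone 5 were called lower and the median was 0.32. In Hoxa-del against WT-Cre the genes called higher numbered 6 to 13 with 1 library left out, 7 without the filter (where more symbols were tested), 20 with the high-Mki67 and 39 with the low-Mki67 libraries alone; 8 and 1 were then called lower, and the low-Mki67 median was 1.36. In Hoxa-del against Hoxa-flox 0 to 2 were called lower with 1 library left out. The medians with 1 library left out were 0.84 to 1.46 (Hoxa-flox against WT-GFP), 0.30 to 0.83 (Hoxa-del against WT-Cre), -0.91 to -0.21 (Hoxa-del against Hoxa-flox), 0.00 to 0.04 (WT-Cre against WT-GFP), -0.89 to -0.20 (interaction) and 1.25 to 1.32 (library sets). The WT-Cre against WT-GFP median was 0.06 with equal upper quartiles; the set difference was 1.42 within Hoxa-flox and 1.20 within Hoxa-del. The cause of these shifts was not tested. The deviations of same-numbered libraries correlated at -0.30, 0.60 and 0.72 between Hoxa-del and Hoxa-flox and at -0.10 to 0.21 elsewhere. The pair at -0.30 came from opposite library sets, and the pairs at 0.60 and 0.72 each came from the same set. Whether the replicate numbers pair the floxed samples therefore cannot be told from these values, and the low values elsewhere gave little sign of pairing. With a replicate block 25 and 15 genes were called higher in Hoxa-flox and Hoxa-del against WT and 0 in the other contrasts. Levels under 1 FPKM, such as those of *Mx1* in WT, are the least precise, and depth in fragments is unknown.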
